A study of Mus musculus with 6 samples.

Results

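The CXCL chemokines are small secreted proteins that bind G protein-coupled CXC receptors and direct the movement of leukocytes. Here they were followed through 8 genes, Cxcl1, Cxcl2, Cxcl9, Cxcl10, Cxcl11, Cxcl12, Cxcl13 and Cxcl16. The members were all non-control probes that carry 1 of these gene names on a 2-colour Agilent mouse array. The array named 27975 genes. The members' probes were 10 of its 41174 non-control probes, with Cxcl12 and Cxcl16 represented by 2 probes each. The other genes had 1 probe each, and no probe with a different gene name in the files mapped to a member.

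The study's title names the early transcriptome of vasoactive intestinal peptide (VIP) in activated CD4 T cells. VIP is a neuropeptide of nerve and immune tissue, and its receptors raise cAMP. Both groups were CD4 T cells from the spleens of C57BL/6J mice, taken with anti-CD4 magnetic beads and activated with PMA, a phorbol ester, and ionomycin, a calcium ionophore. The treated group also received VIP, and the untreated group did not. Each sample pooled 5 to 10 spleens, and the mice of the study were males and females aged 6 to 32 weeks. VIP's dose and exposure time are not stated in the labels. Each of 6 arrays held the VIP and the untreated RNA of 1 biological replicate, with VIP in Cy5 on replicates 1, 3 and 5 and in Cy3 on replicates 2, 4 and 6. A log2 ratio below is always VIP over untreated on the same array, so 0 means equal signal in both channels and 1 means a doubling.

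CXC chemokines are sorted by a short motif, glutamate-leucine-arginine (ELR), ahead of their first cysteines. Members with the motif, here Cxcl1 and Cxcl2, bind Cxcr2 and attract neutrophils; their genes are known targets of NF-kB. Cxcl9, Cxcl10 and Cxcl11 lack it, are induced by interferons, and bind Cxcr3 on activated T cells and NK cells. Cxcl12, Cxcl13 and Cxcl16 bind Cxcr4, Cxcr5 and Cxcr6 and are known for placing cells in marrow, B cell follicles and other tissues.

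The genes of both inducible classes lie in separate groups on chromosome 5. On mm9, the build of the files, the probes of Cxcl9, Cxcl10 and Cxcl11 spanned 38.1 kb (chr5:92752191-92790274), those of Cxcl1 and Cxcl2 spanned 12.7 kb (chr5:91321845-91334593), and 1418 kb separated them. Position within exons or untranslated regions was not analysed here. The first 30 bases of the 60-base probes of the pair of members that rose are shown, since each of these results rests on 1 probe.
Cxcl10 probe, chr5:92775781-92775840, minus strand: gctttgcattgtatatggaagaacttgtgt
Cxcl2 probe, chr5:91334534-91334593, plus strand: atagttggaaggtgatacatttttaaacct
The longest run of bases shared with any probe of another gene was 13 for the Cxcl10 probe and 16 for the Cxcl2 probe. No 2 members of different genes shared more than 9 bases.

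The 250 bases before the start of Cxcl10 and Cxcl9, and of Cxcl2 and Cxcl1, are printed because within each neighbouring pair 1 gene rose with VIP and the other did not pass the test. The sequences are RefSeq's on GRCm38.p6, in the direction of the gene. Capitals mark matches, on either strand, to the interferon-stimulated response element (ISRE: GAAA, any 2 bases, GAAA), the interferon-gamma-activated GAS element (TTCNNNGAA) or the NF-kB motif.
Cxcl10, chr5:92348890-92349139: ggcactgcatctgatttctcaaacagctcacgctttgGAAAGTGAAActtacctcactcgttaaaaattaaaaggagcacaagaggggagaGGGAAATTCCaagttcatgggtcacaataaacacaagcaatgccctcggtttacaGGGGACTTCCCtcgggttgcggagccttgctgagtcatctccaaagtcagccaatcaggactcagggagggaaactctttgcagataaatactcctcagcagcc
Cxcl9, chr5:92328080-92328329: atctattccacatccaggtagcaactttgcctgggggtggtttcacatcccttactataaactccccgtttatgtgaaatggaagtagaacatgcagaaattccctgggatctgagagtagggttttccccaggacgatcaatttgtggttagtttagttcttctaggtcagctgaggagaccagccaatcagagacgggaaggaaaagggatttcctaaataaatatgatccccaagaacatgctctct
Cxcl2, chr5:90903649-90903898: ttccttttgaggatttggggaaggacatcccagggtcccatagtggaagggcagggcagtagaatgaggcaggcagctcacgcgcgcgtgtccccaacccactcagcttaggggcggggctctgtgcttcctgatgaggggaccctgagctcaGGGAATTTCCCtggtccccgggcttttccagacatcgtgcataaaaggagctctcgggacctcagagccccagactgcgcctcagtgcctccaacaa
Cxcl1, chr5:90890995-90891244: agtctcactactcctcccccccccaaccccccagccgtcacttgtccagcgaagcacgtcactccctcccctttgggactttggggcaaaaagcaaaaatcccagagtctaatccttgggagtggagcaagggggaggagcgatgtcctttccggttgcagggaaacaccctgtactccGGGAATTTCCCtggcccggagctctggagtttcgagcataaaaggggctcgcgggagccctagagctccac

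The Cxcl10 window held an ISRE match 213 to 204 bases before the start and an NF-kB match at 159 to 150. A pair of overlapping NF-kB matches lay at 104 to 94, and an AP-1 match (TGANTCA) at 74 to 68. The Cxcl2 and Cxcl1 windows each held the same NF-kB match, read on both strands, at 97 to 87 and at 71 to 61. No ISRE, GAS, NF-kB or AP-1 match fell in the Cxcl9 window as printed, which says only that these letters are not there. Of 32851 promoters of the same length, 2.98% held the ISRE, 7.02% the GAS element, 7.25% the NF-kB motif and 6.75% the AP-1 motif. The cAMP response element (TGACGTCA, in 1.55% of promoters) was in none of these windows, while its half-site (TGACG, in 17.8%) matched at 2 places in the Cxcl1 window. Cxcl12 and Cxcl13 had no ISRE, GAS or NF-kB match in their windows, and those of Cxcl11 and Cxcl16 were not used here.

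Replicate 5 stood apart from the other arrays. Outlier flags covered 13.5% of its spots, against 0.57% to 4.4% elsewhere, and flagged spots were left out. On that array the log2 ratio was 4.08 for Ddx3y, 4.18 for Eif2s3y and -3.29 for Xist, transcripts that differ between the sexes; on the other arrays the same probes lay between -0.34 and 0.46. Which sexes made up a given pool is not stated in the labels. The VIP and untreated RNA of replicate 5 may not be a matched pair. Results are therefore also given without replicate 5. Depending on the array and channel, 56.9% to 99.9% of spots were well above background (99.0% and 99.9% on replicate 6, where the flag therefore separates few probes), and the number of arrays limits the precision. Cd4 and Cd3e, which define the sorted cells, were well above background in both channels of all 6 arrays. In total RNA of a bulk sample, fewer cells of a type and less RNA per cell cannot be told apart.

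Of the 10 member probes, 9 passed the filter and were tested; 2 were higher with VIP, 0 were lower and 7 did not pass (limma, Benjamini-Hochberg adjusted p under 0.05 over all probes). At an unadjusted p under 0.05, 1 member probe was lower, the first of Cxcl16. Among all 33233 tested probes 2.15% were called, with 1.61% higher and 0.536% lower. The median log2 ratio was 0.016 over the tested member probes and -3.2e-04 over all tested probes. The called probes over the array numbered 535 higher and 178 lower. This split differed with the background correction and normalization. It was 108 and 9 for a normexp offset of 0, 57 and 3 for plain background subtraction and 173 and 9 for median centring. Agilent's processed ratios gave 38 and 0, while scale normalization between arrays gave 550 and 171.

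**Figure D1:**
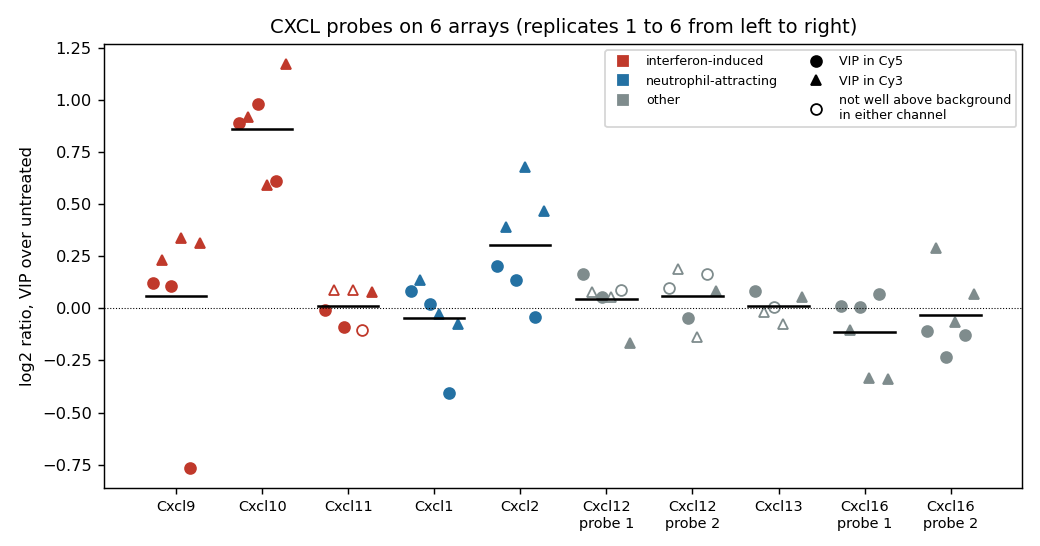
Log2 ratio of VIP over untreated for each of the 10 member probes (y axis), with 1 point per array, replicates 1 to 6 from left to right and the mean as a bar; colours give the class, shapes the dye of VIP, and open points mark spots not well above background in either channel. The 6 Cxcl10 points lie between 0.59 and 1.17, and the single low Cxcl9 point, at -0.76, is replicate 5.

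Cxcl10, which attracts Cxcr3-bearing T cells, rose 1.82-fold with VIP. Its log2 ratios on replicates 1 to 6 were 0.89, 0.92, 0.98, 0.59, 0.61 and 1.17. All 6 were above 0, with replicates 4 and 5 the lowest and replicate 6 the highest. The log2 intensity in the VIP channels ran from 12.47 through a median of 13.83 to 14.19, and in the untreated channels from 11.85 through 12.79 to 13.27. These ranges overlap between arrays, while on each array the VIP channel was above its own untreated channel.

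The fitted log2 ratio of Cxcl10 was 0.86 ± 0.073 (SE, n = 6 arrays; 95% interval 0.70 to 1.02; limma adjusted p = 2.8e-04). It ranked 6 of 33233 tested probes by size. The means by slide, each over 1 array of either dye orientation, were 0.90, 0.79 and 0.89, and the dye effect was -0.03. A sign-flip permutation test over the arrays, exact and two-sided, gave p = 0.03125, the smallest 6 arrays allow. Without replicate 5 the log2 ratio was 0.91 (limma adjusted p = 1.4e-05), and leaving out any other array kept the call. It was lost with Agilent's own processed ratios and with the authors' deposited series table, which holds the same ratios (0.85, limma adjusted p = 0.0539 for both), and with the channels treated as unpaired samples (0.86, limma adjusted p = 0.999963).

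**Figure D2:**
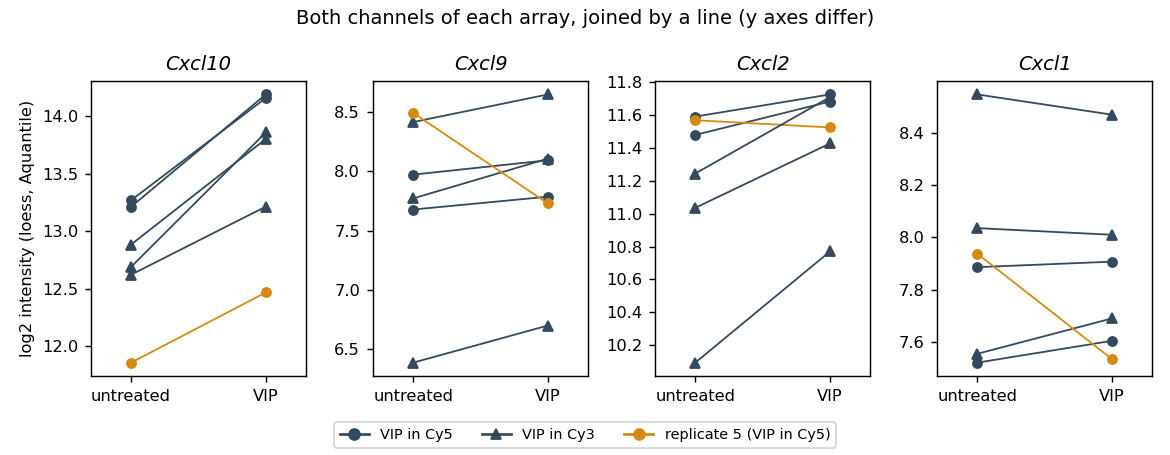
Log2 intensity (after loess and scaling of average intensity between arrays) of Cxcl10, Cxcl9, Cxcl2 and Cxcl1 in the untreated and VIP channels, joined by a line for each array, with a y axis of its own for each gene; shapes give the dye of VIP and replicate 5 is in orange. All 6 Cxcl10 lines rise, 5 of 6 Cxcl2 and Cxcl9 lines rise, and the Cxcl1 lines run both ways.

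Cxcl9, the member of this class most dependent on interferon-gamma, did not pass the test over 6 arrays. Its log2 ratios on replicates 1 to 6 were 0.12, 0.23, 0.11, 0.34, -0.76 and 0.31. The array of replicate 5 alone was below 0, and the other 5 were above it. The fitted log2 ratio was 0.06 ± 0.099 (SE, n = 6; 95% interval -0.16 to 0.28; limma adjusted p = 0.888). Without replicate 5 it was 0.20 ± 0.046 (SE, n = 5) and passed, with a limma adjusted p of 0.027; in that fit 3 of the 9 tested member probes were called higher, beside 2.54% of all probes called higher and 3.59% called in either direction. Cxcl9 was flagged as well above background in both channels of all 6 arrays. Its log2 intensity was lowest on replicate 6, at 6.70 with VIP and 6.39 without, against 7.68 to 8.65 on the others; nearly all spots of replicate 6 carry that flag. The part of the sex-linked difference on replicate 5 in this result was not tested.

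Cxcl11, the remaining Cxcr3 ligand, is a gene from which C57BL/6 mice are known to make no functional protein. Its probe was dim, well above background in 3 of 6 VIP channels and 2 of 6 untreated channels. Its log2 ratios lay between -0.10 and 0.09 and were above 0 on 3 of 6 arrays. The fitted value was 0.01 (95% interval -0.08 to 0.09; limma adjusted p = 0.960). Among the 3 interferon-induced members, then, 1 rose, 0 fell and 2 did not pass.

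Cxcl2, also called macrophage inflammatory protein 2, rose by a smaller amount. On replicates 1 to 6 its log2 ratios were 0.20, 0.39, 0.13, 0.68, -0.04 and 0.46. The 3 arrays with VIP in Cy3 were the highest, and replicate 5 alone was below 0. In the VIP channels its log2 intensity ran from 10.77 through a median of 11.60 to 11.73, and in the untreated channels from 10.09 through 11.36 to 11.59, so that the ranges overlap. The fitted log2 ratio, with the dye as a term, was 0.30 ± 0.051 (SE, n = 6; 95% interval 0.19 to 0.42; limma adjusted p = 0.013), a 1.24-fold rise, and the dye effect was -0.21.

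The call of Cxcl2 was less stable than its direction, which held in all 24 alternatives (0.26 to 0.37). It was lost in 10 of them. The limma adjusted p was 0.126 with a normexp offset of 0, 0.161 with plain background subtraction, 0.102 with median centring, 0.178 with Agilent's ratios or the series table, 0.218 without the dye term and 0.999963 without the pairing. It was also lost without replicate 1 (0.079), replicate 3 (0.065) or replicate 4 (0.056), whereas without replicate 5 it was 0.0028. The exact sign-flip test, which has no dye term, gave p = 0.0625 (two-sided, higher on 5 of 6 arrays).

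Cxcl1, the other Cxcr2 ligand, did not pass. Its log2 ratios on replicates 1 to 6 were 0.08, 0.14, 0.02, -0.03, -0.40 and -0.08, with 3 arrays on either side of 0 and replicate 5 again the lowest. The fitted value was -0.04 ± 0.064 (SE, n = 6; 95% interval -0.19 to 0.10; limma adjusted p = 0.855), and 0.03 without replicate 5. Its probe was well above background in both channels of all arrays. Of the 2 neutrophil-attracting members, 1 rose and 1 did not pass.

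The members that place cells in tissues showed no call. Cxcl12, the ligand of Cxcr4, was near background. Its first probe, well above background on 3 VIP and 2 untreated channels, had a fitted log2 ratio of 0.05 (95% interval -0.06 to 0.15; limma adjusted p = 0.769). Its second probe reached that level on 2 channels of each group and was not tested; its log2 ratios lay between -0.14 and 0.19. Cxcl13, the ligand of Cxcr5, had a fitted log2 ratio of 0.02 over 5 arrays, with the flagged spot of replicate 5 left out (95% interval -0.09 to 0.12; limma adjusted p = 0.940). It was well above background on 3 VIP and 2 untreated channels. At this signal the values of Cxcl11, Cxcl12 and Cxcl13 moved with the processing, beyond the intervals given. With Agilent's ratios they were 0.21, 0.35 and 0.20 (limma adjusted p = 0.719, 0.543 and 0.746), and Cxcl13 was 0.25 with flagged spots kept (0.594). No direction is therefore given for these 3 genes.

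Cxcl16, a membrane-anchored ligand of Cxcr6, was well above background in every channel with both of its probes. The first probe had log2 ratios of 0.01, -0.11, 0.01, -0.33, 0.07 and -0.34 on replicates 1 to 6. All 3 negative values came from arrays with VIP in Cy3. The fitted value was -0.12 ± 0.045 (SE, n = 6; 95% interval -0.22 to -0.016), with an unadjusted p of 0.027 in limma and an adjusted p of 0.294. The second probe lay between -0.24 and 0.29, with a fitted log2 ratio of -0.03 (limma adjusted p = 0.881). Its highest value came from replicate 2, where the first probe was below 0.

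Set in order of their fitted log2 ratio, the tested probes were Cxcl10, Cxcl2, Cxcl9, Cxcl12, Cxcl13, Cxcl11, the second Cxcl16 probe, Cxcl1 and the first Cxcl16 probe. The interval of Cxcl10 overlapped that of no other member. Every other neighbouring pair in this order had overlapping intervals. No member spot was saturated on any array.

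**Figure D3:**
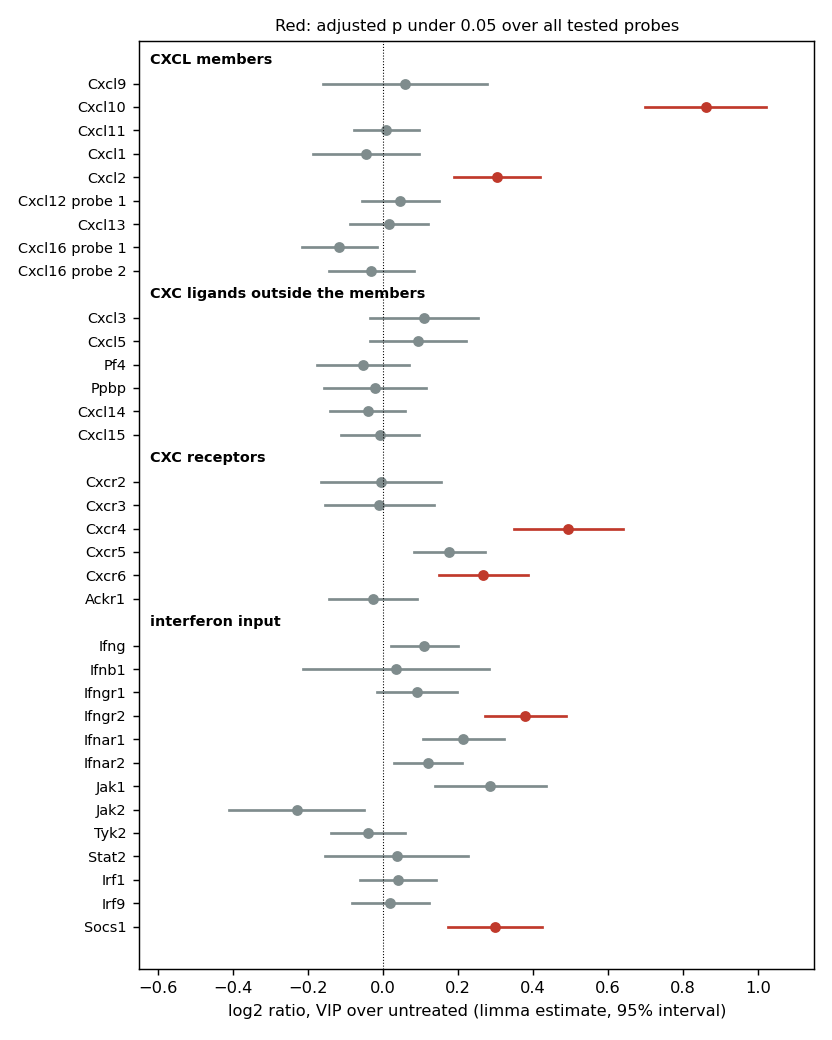
Fitted log2 ratio of VIP over untreated (x axis) with its 95% limma interval for the tested member probes and, by brightest probe, for the other CXC ligands, the CXC receptors and the interferon input genes; red marks an adjusted p under 0.05. Cxcl10, at 0.86, lies to the right of every other gene drawn, and Cxcr4, Ifngr2, Cxcl2, Socs1 and Cxcr6 are the other genes in red.

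The interferon-induced and neutrophil-attracting classes were compared array by array. The mean log2 ratio of the 3 interferon-induced members was 0.31 ± 0.21 (SD, n = 6 arrays) and that of the 2 neutrophil-attracting members was 0.13 ± 0.19. Their difference was 0.18 ± 0.11 (SD), and on replicates 1 to 6 it was 0.19, 0.15, 0.25, 0.013, 0.14 and 0.33. The dim Cxcl11 probe enters the first mean, and the fitted log2 ratios of Cxcl10, Cxcl9 and Cxcl11 were 0.86, 0.06 and 0.01. The first mean thus rests on Cxcl10. By the median of the fitted values the order was reversed, with 0.06 for the interferon-induced and 0.13 for the neutrophil-attracting members. The difference of the class means was above 0 on all 6 arrays and close to 0 on replicate 4, where Cxcl2 was highest. Both class means were below 0 on replicate 5, at -0.09 and -0.22. As the members were chosen with results known, these means have no test.

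Cxcl10 was also set against each other member on the same arrays. It was known from earlier results of these data to be the highest, so these differences describe its distance from the rest and are no independent support. Its log2 ratio exceeded that of Cxcl9 by 0.80 ± 0.36 (SD, n = 6 arrays, range 0.26 to 1.38), that of Cxcl1 by 0.90 ± 0.22 and that of Cxcl16 by 0.98 ± 0.31. Each of these 3 differences was above 0 on 6 of 6 arrays, with p = 0.03125 in the two-sided exact permutation test by sign-flips, the smallest possible, and 0.04375 after Benjamini-Hochberg adjustment over all 7 pairs. Under median centring and with Agilent's ratios or the series table the adjusted p of these 3 was 0.109 in that exact test. With any array left out it was 0.0729 to 0.0875, since 5 arrays cannot pass. The differences from Cxcl11, Cxcl12 and Cxcl13 are not interpreted, as those probes were near background.

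Against Cxcl2 the difference was 0.56 ± 0.33 (SD), between -0.08 and 0.84, and above 0 on 5 of 6 arrays (exact permutation p = 0.0625, also after adjustment). Replicate 4 was the exception, with 0.59 for Cxcl10 and 0.68 for Cxcl2.

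Around Cxcl10, 15 other probes of 10 genes within 200 kb were tested, with log2 ratios between -0.19 and 0.25. Of these 2 were called, both of Scarb2, a lysosomal membrane protein about 102 kb away (0.22 and 0.25, limma adjusted p = 0.0442 and 0.0340). Around Cxcl2, 11 other probes of 10 genes lay between -0.05 and 0.15 and 0 were called by limma, also at an unadjusted p under 0.05. Over all tested probes 2.15% were called. Scarb2 was singled out after its values were seen.

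Among CXC ligands outside the members, 6 of 7 were tested by their brightest probe and 0 were called by limma, also at an unadjusted p under 0.05. Over all 22868 genes so tested 2.15% were called, with 1.60% higher and 0.547% lower. Cxcl3, another Cxcr2 ligand, was at 0.11 on the log2 ratio scale (limma adjusted p = 0.544), and Cxcl5, an epithelial one, had 0.09 (0.570). Pf4, platelet factor 4, had -0.05 (0.782), and Cxcl14 had -0.04 (0.793). Both were dim, so no direction is given for them. Pf4 was well above background on 3 VIP and 4 untreated channels, and Cxcl14 on 3 of each.

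Of 8 CXC receptor genes 6 were tested, and 2 rose, 0 fell and 4 did not pass, beside 1.60% of all genes called higher. The median was 0.09, against -4.2e-04 over all genes. Cxcr4, the Cxcl12 receptor that holds cells in marrow and lymphoid tissue, rose with log2 ratios of 0.30, 0.54, 0.61, 0.36 and 0.70 on replicates 1, 2, 3, 4 and 6. The spot of replicate 5 was flagged, and all 5 values were above 0. Its fitted value was 0.49 ± 0.065 (SE, n = 5; limma adjusted p = 0.0045), and its other probe was called too, with 0.30. Cxcr6, the Cxcl16 receptor, rose by 0.27 ± 0.054 (SE, n = 6; limma adjusted p = 0.031), with replicate 5 at -0.03 and the rest between 0.15 and 0.60. Cxcr5, the Cxcl13 receptor, had 0.18 (limma adjusted p = 0.071) and was above 0 on all 6 arrays; without replicate 5 it passed (0.21, limma adjusted p = 0.025).

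The receptors of the inducible members did not pass. Cxcr3, the receptor of Cxcl9, Cxcl10 and Cxcl11, was well above background and had a log2 ratio of -0.01 ± 0.066 (SE, n = 6; limma adjusted p = 0.975), with 3 arrays on either side of 0. Cxcr2, the receptor of Cxcl1 and Cxcl2, had a fitted value of -0.0047 over the 4 arrays with a usable spot. On replicates 2, 3, 4 and 6 its log2 ratios were -0.31, 0.29, -0.15 and -0.44. Only replicate 3 had VIP in Cy5, so the fit with a dye term leans on that array. The other Cxcr2 probe, with values on 6 arrays, had -0.03 (limma adjusted p = 0.886). Both are named for their ligands and were chosen after their values were seen. Cxcr1 and Ackr3 did not reach the filter.

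Of 13 genes that produce, receive or transmit interferon signals, all were tested, and 2 rose, 0 fell and 11 did not pass. Over all genes 1.60% were called higher, and the list's median was 0.09. Ifngr2, the signalling chain of the interferon-gamma receptor, rose by 0.38 ± 0.049 (SE, n = 6; limma adjusted p = 0.0027) and was above 0 on 6 of 6 arrays; its second probe did not pass (0.24, adjusted p = 0.062). Socs1, a feedback inhibitor of JAK kinases, rose by 0.30 ± 0.057 (SE, n = 5, without replicate 5; limma adjusted p = 0.029). Ifnar1, a chain of the type I receptor, had 0.21 (limma adjusted p = 0.054). The kinase Jak1 had 0.29 with its brightest probe (limma adjusted p = 0.059), while a nearly as bright probe was called over all arrays (0.23, 0.033). At an unadjusted p under 0.05 there were 7 genes, among them the kinase Jak2, named after its values were seen. Jak2 had -0.23 (limma adjusted p = 0.241) and was above 0 on 0 of 6 arrays. Its other probe had -0.18 (0.093), and without replicate 5 its brightest probe had -0.12 (0.252). Without replicate 5, Ifnar1 and Jak1 passed as well, at 0.22 and 0.35, so that 4 of 13 were called, beside 2.50% of all genes called higher and 3.60% called in either direction in that fit.

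Ifng itself, named for its role and chosen after its values were seen, differed by dye. Its log2 ratios were 0.83, 0.88 and 0.95 on the arrays with VIP in Cy5 and -0.61, -0.69 and -0.70 on those with VIP in Cy3. The sign thus followed the dye on all 6 arrays, and the fit with a dye term gave 0.11 (limma adjusted p = 0.262). These values are of the brightest probe. The other Ifng probe, nearly as bright, had a fitted log2 ratio of -0.013 (limma adjusted p = 0.979).

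Of 17 genes known to be induced by interferon-gamma, all tested, 1 rose, 0 fell and 16 did not pass, beside 1.60% of all genes called higher; the median was 0.03. Irgm2, an immunity-related GTPase, rose by 0.23 ± 0.046 (SE, n = 5, without replicate 5; limma adjusted p = 0.038). Psmb10, an immunoproteasome subunit, had 0.12 (limma adjusted p = 0.246), and the guanylate-binding protein genes Gbp2 and Gbp4 had 0.11 and 0.15 (0.472 and 0.486). The list's median on single arrays ran from -0.10 on replicate 5 to 0.14 on replicate 6.

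Of 17 genes known to be induced by type I interferon, 0 were called over 6 arrays by limma, beside 2.15% of all genes called in either direction. Their median was -0.0024, and at an unadjusted p under 0.05 there were 2, Usp18 and Isg20. Usp18, a protease that removes ISG15 and dampens the receptor, had 0.33 (limma adjusted p = 0.063), and Isg20, an antiviral exonuclease, had -0.09 (0.342). Ifit1 and Oas2, antiviral RNA sensors, had 0.18 (0.404) and 0.07 (0.551). The Oas2 probe was dim, well above background on 3 VIP and 2 untreated channels. Its other probe had -0.02, so no direction is given for Oas2. On replicate 5 the list's median was -0.28 and 14 of 17 genes were below 0, while on the other arrays it lay between 0.034 and 0.134. Without replicate 5, 4 of 17 were called higher and 0 lower: Ifit1 (0.29), Isg15 (0.22), Rsad2 (0.29) and Usp18 (0.42), beside 2.50% of all genes called higher in that fit. Other lists were low on replicate 5 too, with medians of -0.19 for processing and mRNA decay, -0.15 for interferon input and -0.14 for the CXC ligands outside the members; Cxcl9 was at -0.76 there and Cxcl10 at 0.61.

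**Figure D4:**
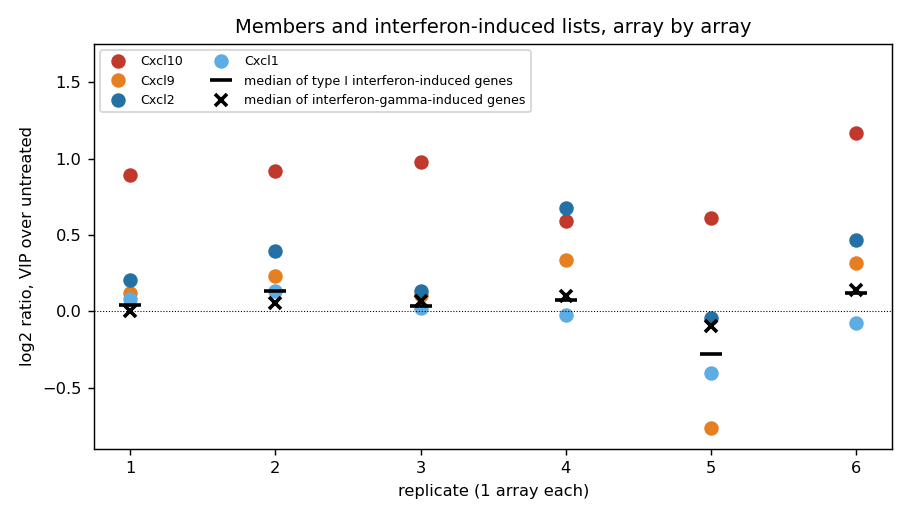
Log2 ratio of VIP over untreated (y axis) for Cxcl10, Cxcl9, Cxcl2 and Cxcl1 on each replicate (x axis, 1 array each), with the median of the 17 type I interferon-induced genes as a bar and of the 17 interferon-gamma-induced genes as a cross. On replicate 5 both medians (-0.28 and -0.10) and Cxcl9, Cxcl2 and Cxcl1 are below 0, while Cxcl10 is at 0.61.

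Of 11 genes that activate or restrain NF-kB or are its cytokine inducers, 1 rose, 0 fell and 10 did not pass. Their median was 0.10, and 1.60% of all genes were called higher. Rel, the c-Rel subunit central to T cell activation, rose by 0.26 ± 0.050 (SE, n = 6; limma adjusted p = 0.028) and was above 0 on 6 of 6 arrays. Nfkbiz, a nuclear inhibitor family member, had 0.15 (limma adjusted p = 0.087), Nfkbia, which holds NF-kB in the cytoplasm, had 0.12 (0.278), and Nfkb1 had 0.15 (0.447). The sign of Nfkbia followed the dye on all 6 arrays. It was 0.42, 0.56 and 0.67 with VIP in Cy5 and -0.36, -0.25 and -0.33 with VIP in Cy3. Without replicate 5, Il1b (0.27) passed besides Rel, while 2.50% of all genes were called higher in that fit.

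Of 8 genes for the processing and mRNA decay of these ligands 0 were called by limma, beside 2.15% of all genes called in either direction. Their median was 0.02, and at an unadjusted p under 0.05 there were 2, Dpp4 and Zfp36. Dpp4, the protease that truncates Cxcl10 and Cxcl12, had 0.16 (limma adjusted p = 0.109) and passed without replicate 5 (0.20, adjusted p = 0.037). In that fit 2.50% of all genes were called higher. Zfp36, which destabilises AU-rich chemokine mRNAs, had 0.16 over the 5 arrays with a usable spot (limma adjusted p = 0.145). Mmp9 had -0.07 and Khsrp had 0.09.

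Markers of other cells that a splenic preparation could hold are given beside Cxcl10, since myeloid and stromal cells are known sources of it. Of 14 monocyte and macrophage markers 1 rose, 0 fell and 13 did not pass, beside 1.60% of all genes called higher. At an unadjusted limma p under 0.05 there were 3, Cd14, Lyz1 and Ctss, beside 2953 of all 22868 genes. The fitted log2 ratio was above 0 for 12 of the 14 markers and for 11372 of all 22868 genes. In every channel 11 of the markers were well above background. The summed intensity of the 14 lay between 20342 and 27312 in the VIP channels and between 17713 and 27216 in the untreated ones. Lyz2 and Ctss made up most of this sum, at mean log2 intensities of 13.47 and 12.86, with no other marker above 9.79. Lyz2 was named for its brightness after its values were seen. Cd14, a lipopolysaccharide co-receptor, rose by 0.57 ± 0.069 (SE, n = 5, without replicate 5; limma adjusted p = 0.0029), with 0.63, 0.84, 0.50, 0.52 and 0.37 on replicates 1, 2, 3, 4 and 6. Lyz1 and Ctss had 0.13 and 0.11 (limma adjusted p = 0.287 and 0.313). The part of these cells in the Cxcl10 result was not tested.

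Of the 11 dendritic cell, 10 B cell, 2 CD8 T cell, 7 NK cell, 7 neutrophil, 8 stromal and endothelial and 5 platelet markers that were tested, 0 were called by limma, also at an unadjusted p under 0.05. Well above background in every channel were 5, 8, 1, 3, 2, 3 and 2 of them, in the same order. The stromal markers Pdgfra, Pdgfrb, Dcn and Lum and the neutrophil markers S100a8 and Csf3r did not reach the filter. The summed intensity of the dendritic cell markers was 5778 to 8172 in the VIP channels and 6526 to 8661 in the untreated ones. Bst2, named for its brightness after its values were seen, made up most of this sum. Its mean log2 intensity was 12.44, against 6.50 to 8.74 for the other dendritic cell markers. Of 11 CD4 T cell markers tested, all well above background in every channel, 3 rose and 0 fell, beside 1.60% of all genes called higher. The 3 were Ccr7, the lymph node homing receptor (0.82), Cd28 (0.28) and Cd2 (0.22). Cd4 and Cd3e had 0.04 and 0.05 (limma adjusted p = 0.769 and 0.698).

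The genes whose 12 channel values were most like those of Cxcl10, among 14016 genes with a RefSeq symbol and values in every channel, and with each dye's mean removed, were Gpat3 (Pearson r = 0.95), Crip1 (0.94), Sgk1 (0.94), Slc37a3 (0.92) and Dntt (0.91). Gpat3 makes a glycerolipid precursor and Sgk1 is a serum- and glucocorticoid-induced kinase. These are descriptions, as the channels share arrays and treatment. Measured the same way, the other members had r between -0.45 for Cxcl12 and 0.53 for Cxcl11, with 0.38 for Cxcl2, -0.05 for Cxcl1 and -0.05 for Cxcl9.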

How the data were processed

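The deposited scanner files hold spot intensity, local background and 0 or 1 quality flags per channel, read with Agilent Feature Extraction 9.5.1.1 per the file headers, on mm9. In the authors' series table the values are log10 ratios, VIP over untreated, and equal the deposited scanner log10 ratios up to sign (largest difference 4.5e-06), with column medians of 0 on 5 arrays and -2.2e-04 on replicate 3; it was an alternative.

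Normexp (offset 50) corrected mean signals for the median local background, and loess normalized each array, in limma 3.58.1 (R 4.3.3). The 1639 control spots had weight 0 and were left out, as were outlier-flagged spots; spots of a probe were averaged. Levels are log2 intensities after scaling average intensity between arrays (Aquantile). Probes well above background on at least 3 arrays in either group were tested; 714 of the 33947 that passed lacked values for a fit. Ratios were fitted with VIP and dye terms (4 residual and 6.42 prior degrees of freedom). Fit code was tested on simulated data.

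Each array is the pair of 1 replicate, per the labels, which number the replicates 1 to 6. On replicate 5 the channels differed by 4.08 for Ddx3y and -3.29 for Xist, so they may not be a matched pair. The paired fit, the differences per array and the sign-flip tests treat them as a pair. The 3 slides held 2 arrays each, VIP in Cy5 at position 2 and in Cy3 at position 4, so position and orientation cannot be told apart. Limma p-values reflect the spread over these 6 arrays, with each probe's variance drawn toward that of all tested probes. The sign-flip p-values rest on these arrays alone. No p-value covers spread beyond these arrays. Array gene names were updated for 24844 probes by accession and 1810 by synonym (RefSeq, GRCm38); 14520 kept theirs. List genes are given by their brightest tested probe. Some genes are not reported here and are left out of the lists and their counts.

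Members and lists were chosen with earlier results of these data known. Named were all members, at most the 4 smallest p of a list, Cd4, Cd3e and the 5 genes most like Cxcl10; others are marked as chosen after seeing values. The analyses without replicate 5 of the lists and of the pairs under alternatives were added after seeing the data.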

Additional observations from a re-analysis of the deposited data

Results flagged for a closer look

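Replicate 5 of Cxcl9, with a log2 ratio of -0.76 against 0.11 to 0.34 on the other 5 arrays, lay far from the rest: its gap to the nearest value was 0.793 of the whole range, above Dixon's 95% critical value for 6 values. On the same array, outlier flags covered 13.5% of spots and the sex-linked transcripts Ddx3y and Xist had log2 ratios of 4.08 and -3.29; their part in the value was not tested.

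Replicate 6 of the first Cxcl12 probe, with a log2 ratio of -0.17 against 0.05 to 0.17 on the others, lay apart by 0.665 of the range. The probe carried the flag for well above background in both channels of that array, as did 99.0% and 99.9% of all spots there. Its log2 intensity was 6.73 and 6.90, close to the 6.73 to 6.89 on replicates 4 and 5, where it lacked the flag. In all, 11 sets of values were examined and 2 were picked out; chance picks about 1 in 20.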

How the results depend on the processing

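Cxcl10 kept its direction in all 24 alternatives (0.79 to 0.94, and 0.79 to 0.94 with any array left out); the call was lost with Agilent's processed ratios (0.85), the series table (0.85) and no replicate block (0.86, channels unpaired). Blocking by slide changed no call of a member. Member probes called higher, 2 in the report, were 1 with a normexp offset of 0, background subtraction, median centring or no dye term, 0 with Agilent's ratios, the series table or no replicate block, and 1 to 3 with an array left out; 0 were called lower in every alternative. All probes called higher and lower numbered 108 and 9 (offset 0), 57 and 3 (subtraction), 173 and 9 (median centring) and 38 and 0 (Agilent, series table). They were 227 and 48 with no dye term and 68 and 0 with no replicate block. With the mean of probes they were 349 and 92, counted over 22868 genes. Lower calls were 343 with array weights and 358 at the looser threshold of 0.10. With an array left out, higher calls ran from 243 to 839 and lower from 47 to 348, both highest without replicate 5. The cause of the shifts in fits over probes at an unchanged threshold was not tested.

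The differences of Cxcl10 from Cxcl1, Cxcl9, Cxcl11, Cxcl12 and Cxcl16 lost the call under median centring (0.98, 0.85, 0.99, 0.94 and 1.03) and with Agilent's ratios or the series table (0.86, 0.75, 0.65, 0.50 and 0.98). With an array left out none can pass, and they ran from 0.84 to 0.96, 0.69 to 0.91, 0.80 to 0.92, 0.71 to 0.87 and 0.87 to 1.06. Dim probes moved most. With Agilent's ratios or the series table Cxcl11 was 0.21, the first Cxcl12 probe 0.35 and Cxcl13 0.20; that Cxcl12 probe was 0.18 with offset 0 and 0.20 with subtraction, and Cxcl13 was 0.25 with flagged spots kept. Values near 0 changed sign. Under median centring Cxcl11 was -0.059, the first Cxcl12 probe -0.012 and Cxcl13 -0.078. Cxcl1 was 0.0031 with array weights, and Cxcl13 was -4.8e-04 with slide as a fixed block. With an array left out, the ranges were -0.017 to 0.20 for Cxcl9, -0.0056 to 0.018 for Cxcl11, -0.0033 to 0.036 for Cxcl13, -0.090 to 0.032 for Cxcl1 and -0.079 to 0.0100 for the second Cxcl16 probe. Signal near background limits Cxcl11, Cxcl12 and Cxcl13.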
